A study of Mus musculus with 6 samples.

Results

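Expression of 10 immediate early genes (Fos, Fosb, Jun, Junb, Egr1, Egr2, Egr3, Nr4a1, Nr4a3 and Atf3) was described in 6 whole mouse hearts, each on 1 Affymetrix Mouse Gene 1.0 ST array, out of 19938 genes that had an array row carrying a single gene symbol. The genes were chosen by name, with the brightest row to be taken where a gene had several, and all 10 had exactly 1 row. The hearts came from male FVB mice, an inbred albino strain, that had all undergone transverse aortic constriction (TAC), a narrowing of the aortic arch that puts a pressure load on the left ventricle, at 8 weeks of age. They were collected 14 weeks after the operation. In 3 mice (A2a-R transgenic) the adenosine A2a receptor was over-expressed from an inducible transgene restricted to the heart, and 3 were wild-type littermates. For the transgene, the promoter, the inducing agent and the time of induction were not stated in the labels. Unoperated hearts were not analysed here, and both genotypes share the surgery. The receptor's own transcript was not analysed here, so no value checks the genotype labels.

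Immediate early genes are transcribed within minutes of a stimulus without new protein synthesis, and their mRNAs are short-lived. Cyclic AMP, the second messenger raised by the A2a receptor through the stimulatory G protein, activates protein kinase A, which phosphorylates the factor CREB on cyclic AMP response elements (CRE); serum response factor on CArG boxes is the other classical route, driven by MAP kinases and by the actin cytoskeleton. Most of the products are transcription factors: Fos and Jun proteins pair as AP-1, Atf3 is a related leucine zipper factor, EGR proteins are zinc finger factors and NR4A proteins are orphan nuclear receptors. In heart muscle they are known to respond to acute pressure load, stretch and adrenergic stimulation, and in whole tissue also to events around its collection. In bulk tissue, fewer cells expressing a gene and less of its RNA per cell cannot be told apart.

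The proximal promoters are shown because the members are grouped by their response to cyclic AMP and because most of them moved together from heart to heart. The RefSeq-derived promoter table (build GRCm38.p6) matched 8 of the 10 members, with 12 windows since Egr2 has several annotated starts; Egr1 and Egr3 are named only. The 250 bases before each start were searched on both strands, and capitals mark the CRE core TGACG or its complement CGTCA, and in Egr2 also the CArG box.
Fos: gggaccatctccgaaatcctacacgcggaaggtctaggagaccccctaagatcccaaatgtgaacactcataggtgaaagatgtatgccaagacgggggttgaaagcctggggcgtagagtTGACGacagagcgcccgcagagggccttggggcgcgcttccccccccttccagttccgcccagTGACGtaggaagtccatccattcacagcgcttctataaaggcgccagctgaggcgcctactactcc
Junb: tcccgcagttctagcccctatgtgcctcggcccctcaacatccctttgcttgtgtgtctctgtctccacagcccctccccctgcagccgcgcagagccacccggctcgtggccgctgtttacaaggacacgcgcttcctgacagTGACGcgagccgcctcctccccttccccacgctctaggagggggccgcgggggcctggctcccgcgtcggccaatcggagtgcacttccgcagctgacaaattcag
Nr4a1: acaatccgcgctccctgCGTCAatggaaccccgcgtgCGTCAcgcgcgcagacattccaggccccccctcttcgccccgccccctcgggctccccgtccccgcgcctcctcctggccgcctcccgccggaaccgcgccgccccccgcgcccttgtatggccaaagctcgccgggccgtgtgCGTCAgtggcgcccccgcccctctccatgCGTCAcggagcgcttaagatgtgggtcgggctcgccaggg
Nr4a3: atgtCGTCAcatTGACGtctcgcattccag
Egr2: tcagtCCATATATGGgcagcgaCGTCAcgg
Fosb: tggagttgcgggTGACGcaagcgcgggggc
The stretches lie at chr12:85473640-85473889 (plus strand), chr8:84978749-84978998 (minus strand), chr15:101266596-101266845 (plus), chr4:48045088-48045117 (plus), chr10:67537792-67537821 (plus) and chr7:19310088-19310117 (minus) and are written 5′ to 3′ along the gene. Fos held the core at 129 and 66 bases upstream of its start, Junb at 106, Fosb at 60 and Atf3 at 7. Nr4a1 held it 4 times, at 233, 213, 69 and 40 bases, and Nr4a3 also 4 times, at 231, 213, 205 and 147 bases, of which the printed stretch shows the middle pair. At least 1 core was present in 7 of the 8 members with a window, against 17.8% of all 32851 promoter windows of the same length. The units differ: members were counted by gene, with Egr2 counted if any of its windows held a core, and the share is by window. In 0.137% of all windows 4 or more cores were present. The CArG box was found in Egr2, 72 bases before the start used here (1.47% of all windows). Jun held no core but held TGACATCA 45 bases upstream (2.93% of all windows). The full element TGACGTCA, which contains the core, was found in none of the 8 (1.55% of all windows), nor were the AP-1 site TGANTCA (6.75%), the EGR site GCGTGGGCG (0.536%) or the NR4A site AAAGGTCA (1.34%). A match describes letters only and shows no binding, and the absence of a match holds for these windows only.

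None of the 10 genes passed the test between genotypes. All 10 stood above the dimmest 40% of rows by their mean, and values are deposited log2 values throughout. With limma on all 21789 rows, 0 of 10 had an adjusted p below 0.05, where 0.959% of all rows did (0.441% with a lower transgenic mean), and 0 of 10 had an unadjusted p below 0.05, where 14.8% did. The mean was lower in the transgenic hearts for 9 of 10 genes, against 53.9% of all rows, and the median log2 difference (transgenic minus wild type) was -0.30, against -0.01 over all genes. The values of the genotypes overlapped for every member; over all rows the groups did not overlap in 20.3%, with the transgenic hearts lower in 12.6% and higher in 7.73%. The 95% interval of the log2 difference included 0 for all 10, against 85.4% of all genes. For 7 of 10 the difference was smaller than the pooled SD between hearts of one genotype, against 57.5% of all genes. The intervals were widest for Egr1, Fos and Nr4a1, so differences of the size of their spread in either direction were not detectable in those genes.

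**Figure D1:**
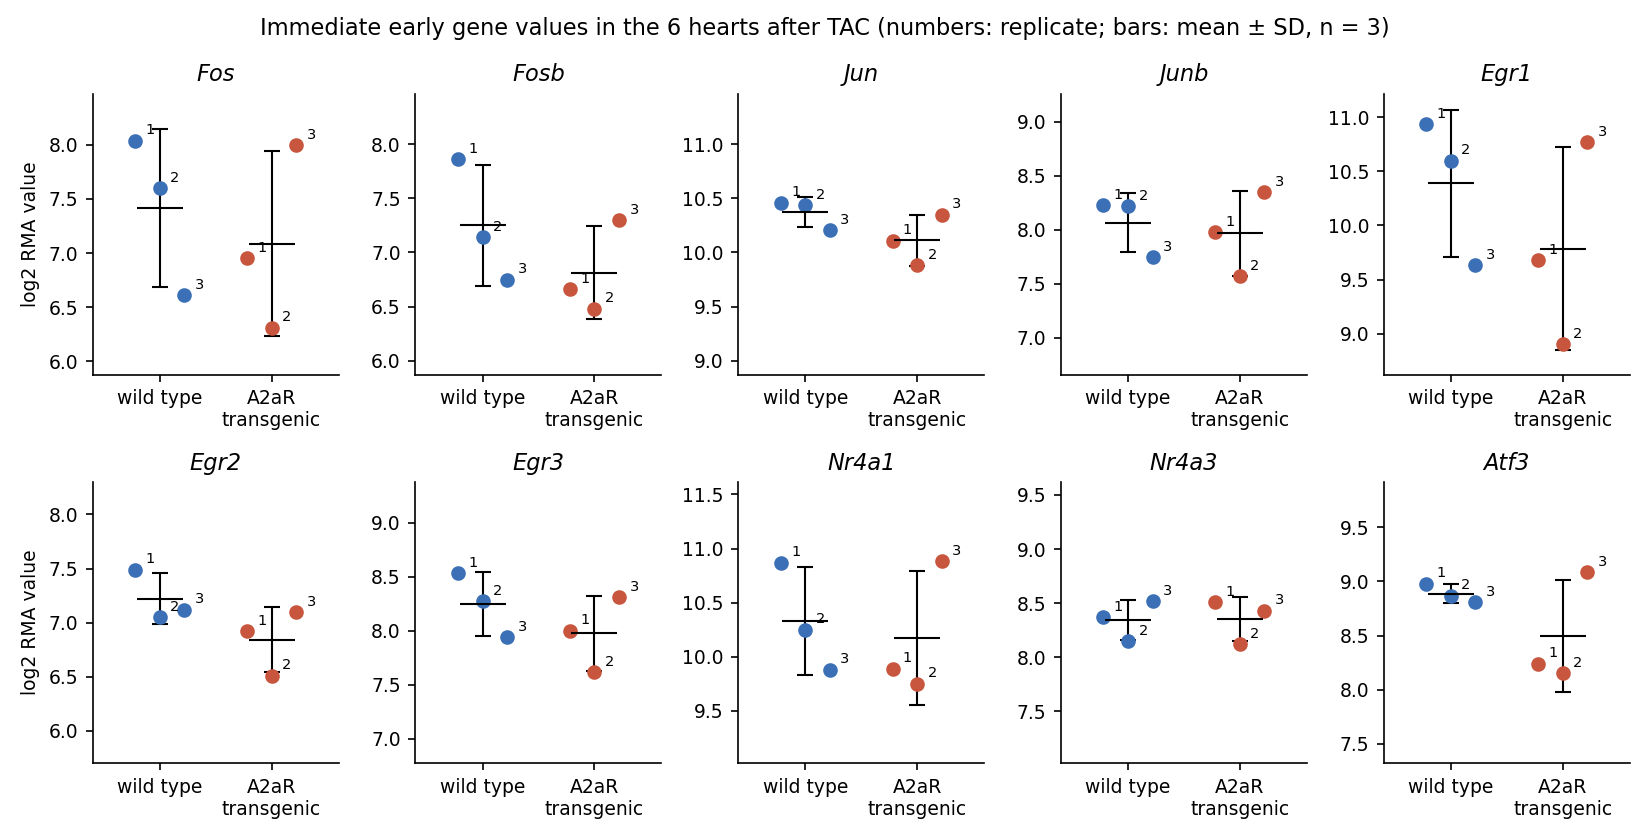
Deposited log2 values (vertical axis) of the 10 genes in the wild-type (blue) and A2a-R transgenic (red) hearts after TAC, with the replicate number beside each point and bars for mean ± SD (n = 3); every panel spans the same log2 range. Transgenic replicate 2 is the lowest point in all 10 panels, and the genotypes overlap in each.

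Among the AP-1 genes, Fos and Fosb varied widely between hearts of one genotype. Fos (transcript cluster 10397346), the partner that gives AP-1 its stability on DNA, had log2 values of 8.04, 7.60 and 6.61 in wild-type replicates 1, 2 and 3 and of 6.95, 6.31 and 8.00 in transgenic replicates 1, 2 and 3. Wild-type replicate 1 and transgenic replicate 3 were thus nearly equal and highest, and the groups overlapped over most of their range. The log2 means were 7.42 ± 0.73 and 7.09 ± 0.85 (SD, n = 3), a log2 difference of -0.33 ± 0.46 (SE) with a 95% interval from -1.39 to 0.73 (limma adjusted p = 0.801). Fosb (transcript cluster 10560481), which encodes a Fos paralog, was at log2 values of 7.86, 7.14 and 6.75 in the wild-type and 6.66, 6.48 and 7.30 in the transgenic hearts. Transgenic replicate 3 lay above 2 of the wild-type hearts, and the other transgenic hearts lay below all 3. Its log2 difference was -0.44 ± 0.29 (SE), with a 95% interval from -1.11 to 0.24 (limma adjusted p = 0.544).

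Jun and Junb, the partners of the Fos proteins, spread less. Jun (transcript cluster 10514466), the founding AP-1 subunit, was at log2 values of 10.46, 10.44 and 10.21 in the wild-type and 10.11, 9.88 and 10.35 in the transgenic hearts. Only transgenic replicate 3 reached into the wild-type range. The log2 difference was -0.26 ± 0.12 (SE), a 1.19-fold lower mean, with a 95% interval from -0.54 to 0.02 (limma adjusted p = 0.379). Junb (transcript cluster 10580282), which often opposes Jun, was at log2 values of 8.23, 8.22 and 7.75 in the wild-type and 7.98, 7.57 and 8.35 in the transgenic hearts. Here the highest heart was transgenic replicate 3 and the lowest transgenic replicate 2, with the wild-type hearts between them. The log2 difference of Junb was -0.10 ± 0.20 (SE, limma adjusted p = 0.870), with a 95% interval from -0.56 to 0.36.

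Atf3 (transcript cluster 10361091), a stress-induced leucine zipper factor that mostly represses its targets, was the member whose outcome depended most on 1 heart. Its log2 values were 8.98, 8.87 and 8.81 in the wild-type and 8.24, 8.15 and 9.09 in the transgenic hearts. The wild-type hearts lay close together, transgenic replicates 1 and 2 lay below all of them, and transgenic replicate 3 lay above all of them. The log2 difference was -0.39 ± 0.22 (SE), with a 95% interval from -0.90 to 0.11 (limma adjusted p = 0.459). Without transgenic replicate 3 it was -0.69 ± 0.08 (SE, limma adjusted p = 0.0219), the single call among the members with any 1 heart left out. Over all 13 alternatives the limma adjusted p of Atf3 ranged from 0.0219 to 0.712. Without transgenic replicate 3, 6 of 10 members had an unadjusted p below 0.05, all with a lower transgenic mean. With all hearts 0 of 10 had one, and of all 21789 rows 2695 had one without that replicate. The 5 besides Atf3 were Jun, Egr1, Egr2, Egr3 and Fosb, with limma adjusted p from 0.256 to 0.399. Transgenic replicate 3 was the highest transgenic heart in 9 of 10 members. Leaving it out therefore lowers their transgenic means, and the 6 of 10 is no separate result. With any other heart left out, 0 to 2 of 10 members had an unadjusted p below 0.05.

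**Figure D2:**
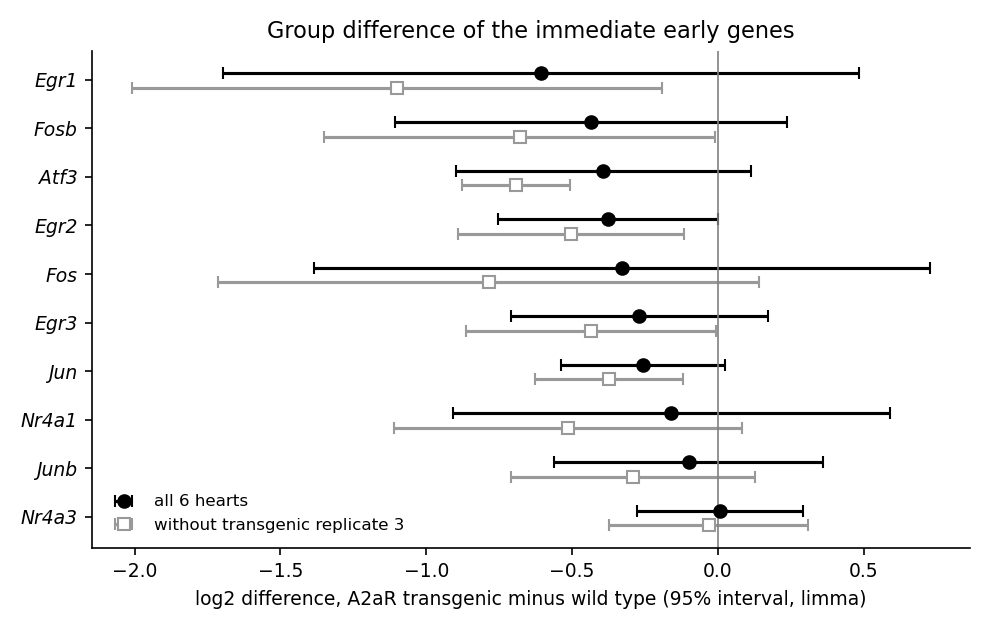
Log2 difference of each gene, A2a-R transgenic minus wild type (horizontal axis), with 95% intervals from limma, for all 6 hearts (filled circles) and without transgenic replicate 3 (open squares). All 10 intervals include 0 with every heart, and the interval of Atf3 narrows to -0.88 to -0.51 without that replicate.

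The EGR genes held the member with the widest spread, Egr1, and the one with the smallest unadjusted p, Egr2. Egr1 (transcript cluster 10454782), a zinc finger factor induced by growth factors and stretch, was at log2 values of 10.94, 10.60 and 9.63 in the wild-type and 9.68, 8.90 and 10.77 in the transgenic hearts. The highest and the lowest heart differed 4.11-fold, and each genotype held both high and low hearts. The log2 difference of Egr1 was -0.61 ± 0.47 (SE), with a 95% interval from -1.70 to 0.48 (limma adjusted p = 0.614). Egr2 (transcript cluster 10363735), also known for its role in myelination, was at log2 values of 7.49, 7.05 and 7.12 in the wild-type and 6.92, 6.51 and 7.10 in the transgenic hearts. Only transgenic replicate 3, between wild-type replicates 2 and 3, overlapped. The log2 difference of Egr2 was -0.38 ± 0.16 (SE; limma adjusted p = 0.339, unadjusted 0.0503). Egr3 (transcript cluster 10416251), itself a target of other immediate early factors, was at log2 values of 8.53, 8.27 and 7.94 in the wild-type and 8.00, 7.62 and 8.31 in the transgenic hearts. Both groups covered a similar range, and the log2 difference was -0.27 ± 0.19 (SE, limma adjusted p = 0.573).

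The 2 NR4A genes differed from each other in how much they varied. Nr4a1 (transcript cluster 10427035), the receptor Nur77, was at log2 values of 10.87, 10.25 and 9.88 in the wild-type and 9.89, 9.75 and 10.88 in the transgenic hearts. Wild-type replicate 1 and transgenic replicate 3 were again level and highest. Its log2 difference was -0.16 ± 0.33 (SE), with a 95% interval from -0.91 to 0.59 (limma adjusted p = 0.873). Nr4a3 (transcript cluster 10504838), the receptor NOR-1, was at log2 values of 8.37, 8.15 and 8.52 in the wild-type and 8.51, 8.12 and 8.43 in the transgenic hearts. The genotypes covered the same range, and the highest and lowest heart differed by only 1.32-fold, against 2.19-fold for Nr4a1. Nr4a3 had a log2 difference of 0.01 ± 0.12 (SE), with a 95% interval from -0.28 to 0.29 (limma adjusted p = 0.988). Its promoter window holds as many CRE cores as that of Nr4a1, as printed above. The sign of the difference was not stable: for Nr4a3 it was negative with arrays centred on their medians and when wild-type replicate 2, transgenic replicate 1 or transgenic replicate 3 was left out. For Nr4a1 it was positive when either wild-type replicate 1 or transgenic replicate 2 was left out, and for Fos and Junb when the latter was.

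The spread between hearts of one genotype was large in these genes. The pooled within-group SD of the log2 values had a median of 0.35 over the 10 members and of 0.09 over all genes, and it was above the 95th percentile of all genes (0.21) in 8 of 10 members; Jun and Nr4a3, at 0.19 and 0.20, were the other two. Egr1, with an SD of 0.82, was exceeded by 1 of the 19938 genes, and Fos, with 0.80, by 2. Nr4a1 (0.56) was exceeded by 9 genes and Fosb (0.50) by 19. Atf3 (0.37), Junb (0.34), Egr3 (0.32) and Egr2 (0.27) were exceeded by 70, 106, 134 and 282 genes. The SD of Atf3 came from 1 genotype: it was 0.09 in the wild-type and 0.52 in the transgenic hearts.

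**Figure D3:**
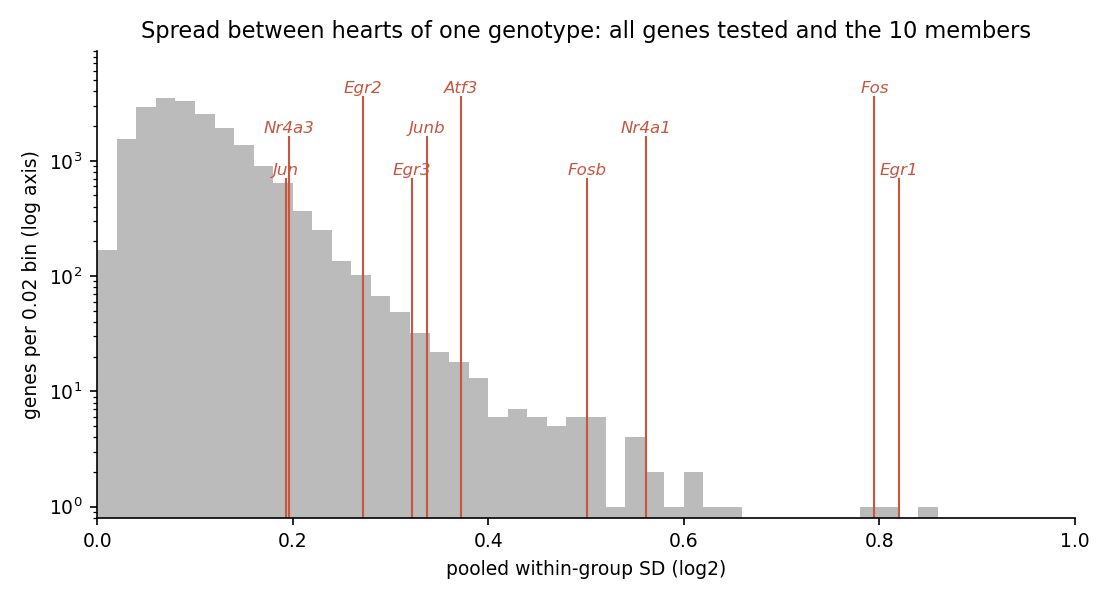
Histogram of the pooled within-group SD of log2 values (horizontal axis) over the 19938 genes, in bins of 0.02 with a log count axis (vertical), with the 10 members marked by red lines whose heights only separate the labels. Egr1 (0.82) and Fos (0.80) lie at the far right end, while Jun (0.19) and Nr4a3 (0.20) lie just below the 95th percentile of all genes (0.21).

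The members moved together from heart to heart, in an order that crossed genotype. These patterns were looked for after the values had been seen, and the shares over all genes are given as description. Transgenic replicate 2 had the lowest value of the 6 hearts in 10 of 10 members, against 24.4% of all genes. Wild-type replicate 1 and transgenic replicate 3 both stood above the other 4 hearts in 7 of 10 members, against 6.27% of all genes; the exceptions were Jun, Egr2 and Nr4a3. Within the transgenic hearts the order was replicate 2, then 1, then 3 in 9 of 10 members (20% of all genes), and within the wild-type hearts replicate 3, then 2, then 1 in 8 of 10 (18.9%). Averaged over the members, the log2 deviation from a gene's 6-heart mean was 0.47, 0.15 and -0.18 in wild-type replicates 1, 2 and 3 and -0.21, -0.58 and 0.35 in transgenic replicates 1, 2 and 3. A wild-type and a transgenic heart were thus at the top, and the mean of all 10 genes in transgenic replicate 3 was above that in 2 of the wild-type hearts. Over all genes, the mean log2 deviation of transgenic replicate 2 was -0.02.

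**Figure D4:**
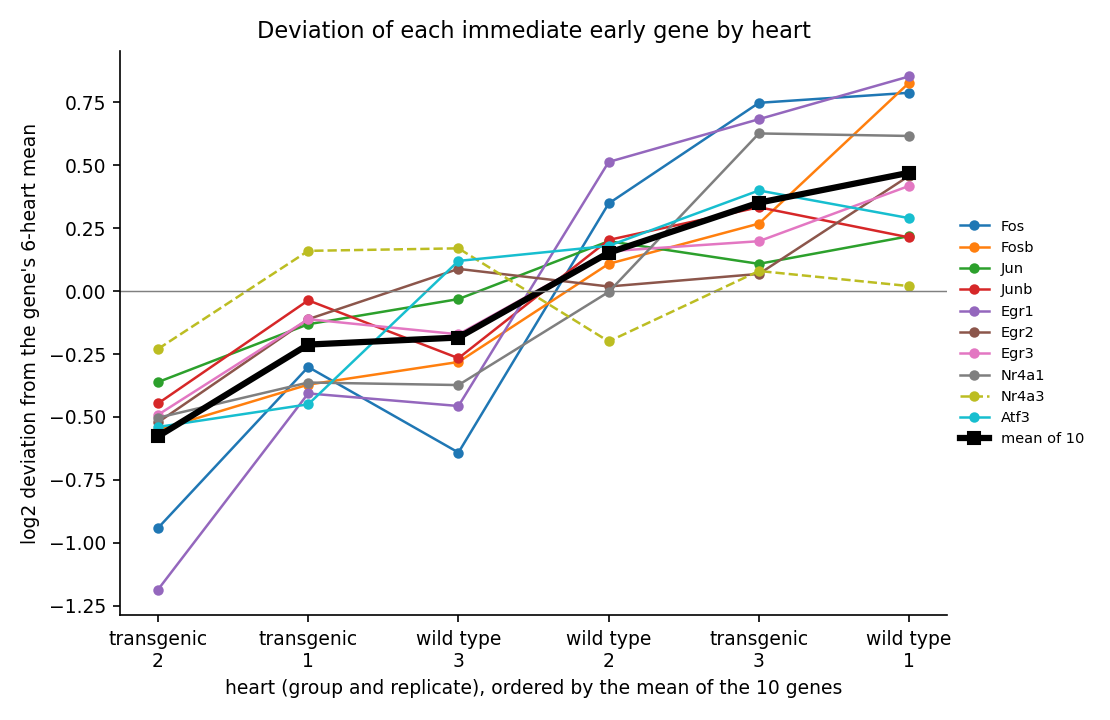
Log2 deviation of each gene from its own 6-heart mean (vertical axis) in the 6 hearts, ordered by the mean of the 10 genes (black squares). The mean climbs from -0.58 in transgenic replicate 2 to 0.47 in wild-type replicate 1 with transgenic replicate 3 (0.35) next to it, and Nr4a3 (dashed) stays between -0.23 and 0.17.

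The size of the differences between genotypes depended on single hearts. The log2 differences of Fosb, Jun, Egr1, Egr2, Egr3 and Atf3 stayed negative whichever heart was left out. The median log2 difference of the members was -0.12 without transgenic replicate 2, -0.13 without wild-type replicate 1 and -0.51 without transgenic replicate 3, and it stayed negative in each of the 6 fits that left out 1 heart. Without transgenic replicate 2 the log2 difference was -0.17 for Egr1, -0.21 for Egr2, -0.09 for Egr3, -0.27 for Fosb, -0.14 for Jun and -0.22 for Atf3. Without wild-type replicate 1 it was -0.33 for Egr1, -0.24 for Egr2, -0.13 for Egr3, -0.13 for Fosb, -0.02 for Fos and -0.02 for Junb. These hearts are the lowest and, in most members, the highest of their genotype, and leaving either out brought the means of these genes closer. Without transgenic replicate 3 the log2 difference was -1.10 for Egr1, -0.79 for Fos, -0.68 for Fosb, -0.51 for Nr4a1, -0.44 for Egr3, -0.38 for Jun and -0.29 for Junb. Without wild-type replicate 3 it was -0.99 for Egr1, -0.73 for Fos, -0.69 for Fosb, -0.42 for Egr3, -0.39 for Nr4a1 and -0.26 for Junb. Nr4a1 was at -0.02 without transgenic replicate 1, and Junb at -0.02 without wild-type replicate 2. In the samples' descriptions the wild-type hearts are numbered 3, 4 and 5 and the transgenic hearts 1, 2 and 3, so that wild-type replicate 1 and transgenic replicate 3, the 2 high hearts, share the number 3. What that number marks is not stated, and its part in the values was not tested.

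Other immediate early genes came from a list of 34, of which 33 were measured. Of the 33, the groups did not overlap in Gadd45b, Rgs2, Plk3, Ier5, Csrnp1, Klf10, Maff and Crem. Over all rows they did not overlap in 20.3%. The genes described first were picked as called or of smallest p. Of the 33, 1 rose, 0 fell and 32 did not pass with limma over all rows; 9 had a higher, 23 a lower and 1 an equal mean in the transgenic hearts, and the median log2 difference was -0.11. Gadd45b, which encodes a stress sensor that binds MAP kinase kinases, rose: its log2 values were 7.34, 7.38 and 7.49 in the wild-type and 8.10, 7.98 and 7.77 in the transgenic hearts. All transgenic hearts were higher, and the log2 difference was 0.55 ± 0.09 (SE), 1.46-fold (limma adjusted p = 0.0370). The call was lost when any 1 heart other than transgenic replicate 3 was left out (limma adjusted p 0.0833 to 0.150).

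Rgs2, an inhibitor of Gq signalling, was at log2 values of 7.82, 8.13 and 8.41 in the wild-type and 8.74, 8.84 and 8.51 in the transgenic hearts. The groups did not overlap, but the log2 difference of 0.58 ± 0.15 (SE) did not pass (limma adjusted p = 0.133). The kinase gene Plk3 had a log2 difference of -0.46 ± 0.10 (SE, limma adjusted p = 0.0864) and Ier5 one of -0.42 ± 0.10 (0.105). The log2 difference of Csrnp1, a nuclear protein induced by AXIN1, was -0.24 ± 0.07 (SE, limma adjusted p = 0.186). In Plk3, Ier5 and Csrnp1 every transgenic heart, replicate 3 included, was below every wild-type heart, as in 12.6% of all rows. Plk3 passed without transgenic replicate 3, with arrays centred on their medians, without the dimmest 40% of rows and with a trended and robust prior; Ier5 passed without those dim rows and with that prior.

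The remaining paralogs of the members are given for completeness of the families, outside the naming rule and with their values known. Nr4a2, the third NR4A receptor, was at log2 values of 8.83, 8.07 and 7.48 in the wild-type and 7.62, 7.37 and 8.19 in the transgenic hearts, with wild-type replicate 1 highest and transgenic replicate 2 lowest as in Fos and Egr1. Its log2 difference was -0.40 ± 0.33 (SE, limma adjusted p = 0.634). Log2 differences of the other AP-1 genes were 0.00 for Fosl1, -0.01 for Fosl2 and -0.08 for Jund, and Egr4 had -0.02, with limma adjusted p from 0.687 to 1. Over the 33 genes, transgenic replicate 2 was lowest in 17 (24.4% of all genes) and wild-type replicate 1 highest in 18 (19.7% of all genes).

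**Figure D5:**
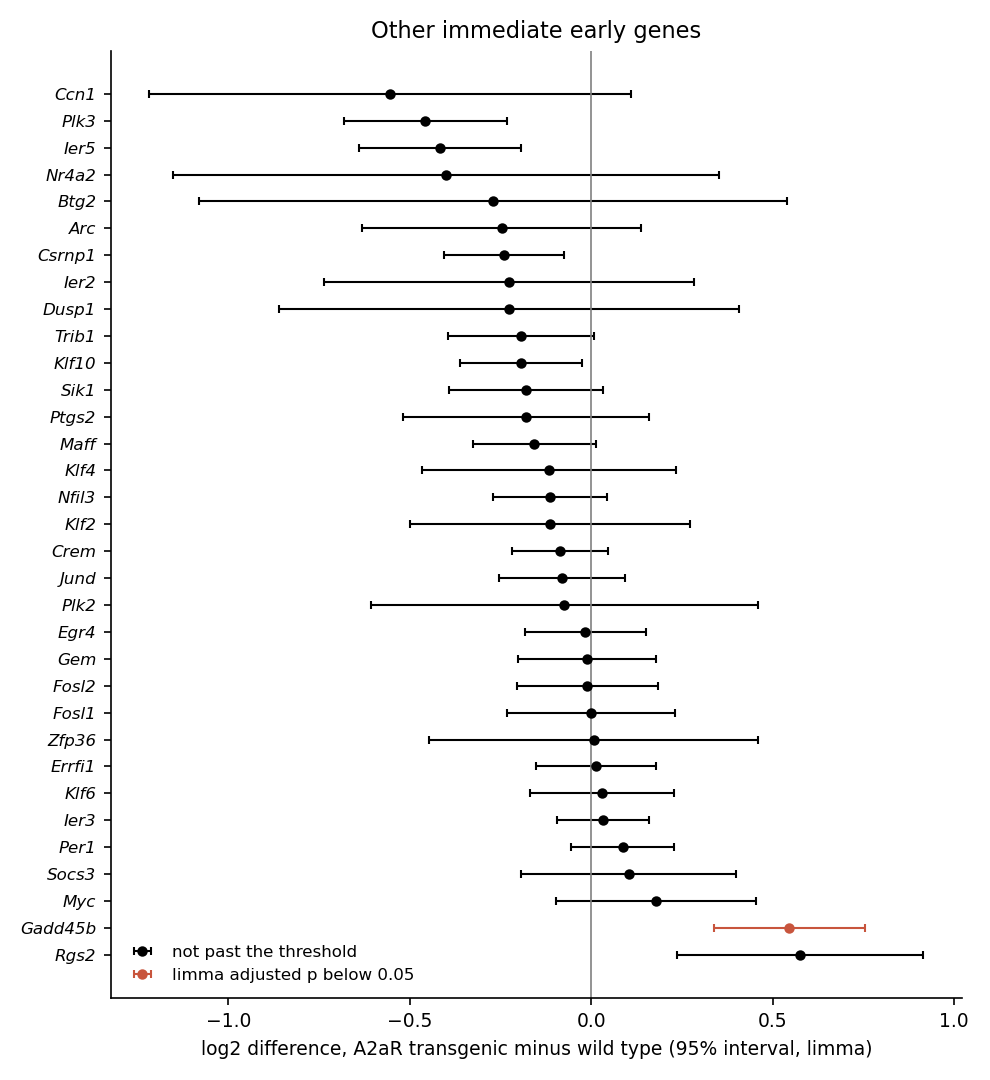
Log2 difference, A2a-R transgenic minus wild type (horizontal axis), with 95% intervals from limma, for the 33 other immediate early genes (rows). Gadd45b (0.55, red) is the gene past the threshold, Rgs2 (0.58) lies beside it, and Plk3 (-0.46) and Ier5 (-0.42) have intervals below 0.

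The factors and kinases upstream of immediate early genes differed little. Of 28 listed genes for CREB, serum response factor and their kinases and coactivators 22 were measured. With limma 0 passed and 2 had an unadjusted p below 0.05, against 14.8% of all rows. The mean was higher in 4, lower in 16 and equal in 2, and the median log2 difference was -0.07. Creb1, the cyclic AMP response element-binding factor, was at log2 values of 8.70, 8.72 and 8.60 in the wild-type and 8.56, 8.52 and 8.40 in the transgenic hearts. These groups did not overlap, with a log2 difference of -0.18 ± 0.07 (SE, limma adjusted p = 0.269). Elk3, a ternary complex partner of serum response factor, also had a log2 difference of -0.18 ± 0.06 (SE, limma adjusted p = 0.242). The kinase A regulatory subunit Prkar1a and the coactivator Ep300 had log2 differences of -0.13 and -0.11 (limma adjusted p = 0.411 and 0.421). The median within-group SD of the list was 0.06, and transgenic replicate 2 was its lowest heart in 8 of 22 genes, against 24.4% of all genes.

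Of 19 listed binding partners and corepressors 17 were measured, and 0 passed with limma. An unadjusted p below 0.05 was found in 0, against 14.8% of all rows, and the median log2 difference was -0.03. The small Maf protein gene Mafk had a log2 difference of -0.17 ± 0.10 (SE) and the AP-1 subunit Jund, a member of this list too, -0.08 ± 0.08 (limma adjusted p = 0.482 and 0.687). For Ddit3, which encodes the stress factor CHOP, the log2 difference was 0.07, and for Maf -0.06.

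Feedback phosphatases and mRNA decay factors act to end immediate early signals. Of 16 measured genes 0 passed with limma and 7 had an unadjusted p below 0.05, against 14.8% of all rows. Of these 7, 3 had a higher and 4 a lower mean, and the median log2 difference of the list was -0.06. Dusp8, a phosphatase of the stress-activated MAP kinases JNK and p38, was at log2 values of 9.42, 9.40 and 9.47 in the wild-type and 9.12, 9.11 and 9.18 in the transgenic hearts. The groups were apart by more than their own ranges, with a log2 difference of -0.29 ± 0.06 (SE, limma adjusted p = 0.0605). It passed without the dimmest 40% of rows and with a trended and robust prior. Dusp5, a nuclear phosphatase of ERK, had a log2 difference of 0.26 ± 0.08 (SE) and Pde4d, a phosphodiesterase that degrades cyclic AMP, 0.29 ± 0.08 (limma adjusted p = 0.174 and 0.150). Pde4d passed with the trended and robust prior (limma adjusted p = 0.0496), but with the mean of its rows its log2 difference was 0.11 (limma adjusted p = 0.623). The log2 difference of Dusp4 was -0.36 ± 0.14 (SE, limma adjusted p = 0.288).

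Textbook target genes of AP-1 and EGR factors held 1 call. Of 20 listed genes 18 were measured, and with limma 0 rose, 1 fell and 17 did not pass. An unadjusted p below 0.05 was found in 9, against 14.8% of all rows. Of these 9, 4 were higher and 5 lower, and the median log2 difference of the list was -0.06. Ccnd1, which encodes the cell cycle regulator cyclin D1, fell: its log2 values were 10.08, 10.08 and 10.03 in the wild-type and 9.69, 9.73 and 9.69 in the transgenic hearts. Its log2 difference was -0.36 ± 0.05 (SE, limma adjusted p = 0.0243); the call was lost with any 1 heart left out (limma adjusted p 0.0647 to 0.112). The angiogenic factor Vegfa had a log2 difference of -0.28 ± 0.05 (SE) and Thbs1, the matricellular thrombospondin-1, -0.58 ± 0.13 (limma adjusted p = 0.0669 and 0.0957). The metalloproteinase inhibitor Timp1 had a log2 difference of 0.62 ± 0.12 (SE) and the hyaluronan receptor Cd44 0.37 ± 0.08 (limma adjusted p = 0.0705 and 0.0920). All 4 passed without the dimmest 40% of rows and with a trended and robust prior. Timp1 also passed with arrays centred on their medians and without wild-type replicate 1, and Thbs1 without transgenic replicate 3.

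The genes most like the members in profile were sought among 9959 other genes with a mean above the median, by the root mean square distance of a gene's centred log2 profile over the 6 hearts from the mean profile of the 10 members. The nearest was Dusp1, the immediate early phosphatase of MAP kinases, at a log2 distance of 0.10, against a median of 0.36 over these genes. Its log2 values were 12.55, 12.33 and 11.68 in the wild-type and 11.92, 11.49 and 12.47 in the transgenic hearts, high in wild-type replicate 1 and transgenic replicate 3 like Fos. Adamts1, a secreted metalloproteinase, and Hes1, a repressor downstream of Notch, followed at log2 distances of 0.13 each. Ier2, another immediate early gene, the endothelial tight junction gene Cldn5 and Slc16a13, of the monocarboxylate transporter family, stood at 0.14, 0.14 and 0.15. None of the 6 passed between genotypes (limma adjusted p 0.337 to 0.766). Genes picked for nearness to a profile in which the genotypes overlap are unlikely to pass, so this is no separate result. The likeness rests on 6 hearts, and the genes are the nearest of many. Of the members, Egr3 lay closest to the mean profile, at a log2 distance of 0.09, and Egr1 (0.38) and Nr4a3 (0.36) farthest from it. This distance counts size as well as shape, and the mean profile itself had a root mean square size of 0.36. Egr1 deviated in the same direction as the mean profile in every heart, by more, whereas Nr4a3 deviated little.

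Markers of other cell types did not all follow the order of the members. Cardiomyocyte markers, 8 of 8 measured and bright in every heart, had a mean log2 value of 13.61 to 13.67 in the wild-type and 13.63 to 13.69 in the transgenic hearts. Macrophage and monocyte markers, 10 of 10 higher in the transgenic mean although 0 passed with limma (7 had an unadjusted p below 0.05), had a mean log2 value of 8.49 to 8.67 in the wild-type and 8.86 to 9.01 in the transgenic hearts; they were highest in transgenic replicate 2 in 7 of 10, the heart in which the members were lowest. Fibroblast markers, 8 of 8 measured, had a mean log2 value of 9.88 to 10.21 in the wild-type and 9.99 to 10.01 in the transgenic hearts. In 7 of 8 they were highest in wild-type replicate 1, as 6 of the 10 members were, against 19.7% of all genes. Smooth muscle and pericyte markers had means of 9.08 to 9.16 and 9.21 to 9.26, with Acta2, smooth muscle actin, the call among 8. Endothelial markers had means of 10.62 to 10.63 and 10.52 to 10.58, neutrophil markers of 5.12 to 5.41 and 5.19 to 5.24, below the log2 value of 6.57 that bounds the dimmest 40% of rows. With limma 0 passed in either list. An unadjusted p below 0.05 was found in 2 endothelial and 0 neutrophil markers, against 14.8% of all rows. T and B cell markers, 7 of 8 measured, had means of 5.91 to 6.02 and 5.95 to 6.04, also below 6.57. Among them 0 passed and 3 had an unadjusted p below 0.05, against 14.8% of all rows. Of 7 red blood cell markers 3 were measured, with means of 6.82 to 6.95 and 6.58 to 6.66; Alas2 was the call. The part of these cell types in the values of the immediate early genes was not tested.

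Over whole arrays, the mean log2 value lay between 7.03 and 7.06. No array duplicated another. With limma 209 rows passed, 113 higher and 96 lower in the transgenic hearts; the split was 184 and 309 without the dimmest 40% of rows, 240 and 339 with a trended and robust prior, 133 and 75 with all rows tested, and 129 and 147 with arrays centred on their medians. Arrays give no counts, so their number limits the precision here.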

How the data were processed

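RNA from 6 hearts was measured on 1 array each, 3 wild type and 3 A2a-R transgenic, all after TAC. The authors deposited log2 values. RMA (background correction, quantile normalisation and probe summarisation) and Partek are named in the submitters' processing notes; no version, setting or build was found in the labels. Quantile normalisation hides a global shift in RNA content. Changes of dim and very bright genes can be compressed in array values. Of 28853 rows, 21789 carried exactly 1 symbol in the platform annotation (1621 several, 5443 none) and were tested; 3 list genes were matched through a RefSeq synonym.

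Rows were fitted with limma 3.58.1 in R 4.3.3 (lmFit and eBayes, no covariate, transgenic minus wild type), with Benjamini-Hochberg adjustment over all 21789 rows and a threshold of 0.05. Errors are SD (n = 3) or the moderated SE. The code was tested on simulated data. Members and lists were chosen with earlier results of these data known, so lists are described without tests. Named genes are the members, the called genes of each list with up to 4 others of smallest p, the 6 of nearest profile, and those stated otherwise; Acta2 and Alas2 are named as the calls of their marker lists. Nothing in the labels ties equal replicate numbers to a litter or day. Alternatives were the replicate number as a block, further quantile normalization, median centring, a filter on dim rows, another variance prior, all rows, the mean of a gene's rows and leaving out each array.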

Additional observations from a re-analysis of the deposited data

How the results depend on the processing

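Across 13 alternatives the median log2 difference of the 10 genes stayed negative, from -0.31 to -0.28 under the 7 that kept all hearts and from -0.51 to -0.12 with 1 heart left out. The count of members passing was 0 throughout, except without transgenic replicate 3 (range 0 to 1 with 1 heart left out). Rows passing, 209 in the main setting, were 493 without the dimmest 40% of rows and 579 with a trended and robust prior, and 84 to 147 with 1 heart left out. The cause of these changes in count was not tested. Under the filter fewer rows were tested, and with 1 heart left out fewer arrays were fitted. With the replicate number as a block 97 rows and 0 members passed. Deviations from the group mean correlated at 0.16, -0.0055 and -0.12 for hearts with equal numbers in the titles, and not every heart correlated best with its own number, so the numbers were not taken as pairs. The descriptions number the hearts otherwise, with 1 number shared, too few for a block; its hearts, wild-type replicate 1 and transgenic replicate 3, correlated at 0.091. Of the values of single members under alternatives, 121 kept their direction and side of the threshold, 1 passed it and 8 changed sign. Nr4a3 was at -0.0033 with arrays centred on their medians. With 1 heart left out, the log2 difference ran from -0.79 to 0.058 for Fos, from -0.29 to 0.10 for Junb, from -0.51 to 0.11 for Nr4a1 and from -0.092 to 0.12 for Nr4a3. It ran from -0.11 to 0.0033 for Maf, from -0.48 to 0.0083 for Dusp1, from -0.42 to 0.01 for Ier2 and from -0.32 to 0.01 for Slc16a13. The calls of Gadd45b and Ccnd1 were also lost with the block (limma adjusted p = 0.114 and 0.0841), and that of Gadd45b with all rows of the table tested (0.0589). For the dimmer members, signal over background could not be judged from the deposited values.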
